A study of Mus musculus with 9 samples.

Results

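The 42 genes described here encode the proteins that license origins of DNA replication and build the replication fork. Their mRNA levels were compared in mouse ES cells that lacked Thr or Cys for 3 h or were not starved. The members were chosen by gene symbol from the established roles of the proteins and not by a measured value, but with earlier results of these data known. All 42 were found in the count table and passed the filter of at least 1 count over the 9 libraries, out of 20143 genes tested, and the lowest count of any member in any library was 512. They fall into 7 groups by role, namely the MCM2-7 helicase (6 genes), the licensing loaders and their inhibitor (9), helicase activation (6), polymerases and primase (8), clamp and clamp loader (6), single-strand binding and Okazaki fragment joining (4) and nucleotide supply (3).

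The cells were E14 cells, a wild-type line of pluripotent ES cells from the mouse, grown on gelatin in serum and LIF. They were taken in 3 groups of 3 libraries: Thr-starved, Cys-starved and unstarved. The study's methods do not say in which medium, or for how long, the unstarved cells for RNA sequencing were kept. Paired-end sequencing was done on poly(A) RNA. The total count per library was 48763102 to 74962733 with Thr starvation, 57700492 to 62657358 with Cys starvation and 54294288 to 61459894 without starvation. Levels are given as CPM, the usual scaling of a gene's counts to a fixed library total, with library sizes adjusted by TMM, so that every level is relative to the rest of the poly(A) RNA of its library. The data come from a single line and a single time point, and in bulk RNA fewer cells of a kind and less RNA per cell cannot be told apart. Both starvations were set against the same 3 unstarved libraries.

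An origin is licensed in G1, when ORC, Cdc6 and Cdt1 load the MCM2-7 ring onto DNA as an inactive double hexamer, and geminin, the product of Gmnn, binds Cdt1 and prevents a further round of loading before the next division. In S phase, Cdc45 and the GINS complex join the ring to form the active helicase, Mcm10 helps to start it, polymerase alpha with primase lays down primers, and polymerases delta and epsilon extend them on the clamp Pcna that the RFC complex loads. Rpa covers the single strands, Fen1 and Lig1 process and join Okazaki fragments, and ribonucleotide reductase and thymidylate synthase supply the deoxynucleotides. Mouse ES cells spend most of their cycle in S phase with a short G1, and many of these genes are known targets of E2F transcription factors.

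The promoters of 5 members are shown because all 5 genes changed with Thr starvation and because they contrast promoters with and without a sequence match to the E2F site. The sequences are the 250 bases before the RefSeq start on GRCm38.p6, read 5′ to 3′ on the strand of the gene, at chr8:75109259-75109508 (plus strand, Mcm5), chr1:128359706-128359955 (minus strand, Mcm6), chrX:93632156-93632405 (minus strand, Pola1), chr7:102441445-102441694 (plus strand, Rrm1) and chr19:5964207-5964456 (minus strand, Pola2). No exon is annotated in any of these 5 windows. Capitals mark matches to TTTCCCGC, TTTCGCGC, TTTGCCGC or TTTGGCGC on either strand, and in Mcm5 and Mcm6 a pair of such matches overlaps.
Mcm5: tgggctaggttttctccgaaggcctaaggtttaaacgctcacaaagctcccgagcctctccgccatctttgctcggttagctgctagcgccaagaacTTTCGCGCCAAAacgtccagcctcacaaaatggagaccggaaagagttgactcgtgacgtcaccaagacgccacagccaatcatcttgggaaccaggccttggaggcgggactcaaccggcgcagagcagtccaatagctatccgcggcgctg
Mcm6: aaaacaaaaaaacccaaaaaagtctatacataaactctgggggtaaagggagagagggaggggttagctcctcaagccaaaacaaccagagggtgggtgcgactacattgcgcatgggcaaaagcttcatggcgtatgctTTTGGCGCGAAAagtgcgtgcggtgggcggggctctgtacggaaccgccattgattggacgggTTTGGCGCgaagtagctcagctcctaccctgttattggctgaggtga
Pola1: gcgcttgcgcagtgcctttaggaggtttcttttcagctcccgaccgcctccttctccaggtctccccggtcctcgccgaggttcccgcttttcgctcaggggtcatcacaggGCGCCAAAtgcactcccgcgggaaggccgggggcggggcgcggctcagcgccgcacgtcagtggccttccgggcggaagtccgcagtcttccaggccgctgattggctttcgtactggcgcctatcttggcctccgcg
Rrm1: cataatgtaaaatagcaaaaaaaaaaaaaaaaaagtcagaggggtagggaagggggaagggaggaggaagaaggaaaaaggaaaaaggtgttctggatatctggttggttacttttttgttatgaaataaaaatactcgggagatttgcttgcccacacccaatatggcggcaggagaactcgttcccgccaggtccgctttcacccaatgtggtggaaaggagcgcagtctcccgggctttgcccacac
Pola2: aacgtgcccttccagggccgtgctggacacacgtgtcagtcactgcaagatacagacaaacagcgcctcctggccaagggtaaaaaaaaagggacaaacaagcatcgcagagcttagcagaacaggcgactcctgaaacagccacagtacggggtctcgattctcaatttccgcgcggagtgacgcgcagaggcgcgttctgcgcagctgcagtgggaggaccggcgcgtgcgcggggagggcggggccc

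In Mcm5 the overlapping matches begin 153 and 149 bases before the start, in Mcm6 they begin 110 and 106 bases before it with another match at 47, and in Pola1 the match begins 138 bases before it. Rrm1 and Pola2 have none in the window. With Thr starvation Mcm5, Mcm6, Pola1 and Rrm1 were higher and Pola2 was lower, so the members with no match include a gene of each direction. The same holds for members with a match that are not shown here. Of 14 members with a match, 10 were higher with Thr starvation and 3, Orc1, Orc3 and Rfc3, were lower. Of 20 examined members with no match, 12 were higher and 3 lower. Of all genes tested, 31.1% were called higher and 31.9% lower. A part of the matches in the changes was not tested.

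The libraries of each group lay close together on the members. The coefficient of variation of a member over 3 libraries had a median of 1.85% without starvation, 1.63% with Thr and 1.55% with Cys starvation, and the highest value was 7.77%, for Fen1 with Thr starvation. All 10 ES cell markers were present, led by Pou5f1 at 843 to 858 CPM without starvation. The summed level of the ES cell markers was 4593 to 4642 CPM without starvation, 4820 to 4906 CPM with Thr and 4321 to 4379 CPM with Cys starvation. The 10 markers did not move together. With Thr starvation 5 were called higher and 5 lower, with log2 changes from −1.69 to 0.85. With Cys starvation 3 were called higher and 7 lower, with log2 changes from −0.50 to 0.26. Over the 9 libraries, the fibroblast markers (5 of 7 tested) summed to 10.1 to 16.8 CPM, the primitive endoderm markers to 6.24 to 11.4 CPM, the trophoblast markers (4 of 5 tested) to 1.58 to 3.00 CPM and the germ layer markers to 22.4 to 28.6 CPM. Several of these low sums separated by group. With Thr starvation the fibroblast sum was 10.1 to 11.4 CPM beside 15.1 to 15.4 CPM without starvation, and the trophoblast sum was 1.58 to 2.00 CPM beside 2.18 to 3.00 CPM. The primitive endoderm sum was 6.24 to 7.19 CPM with Thr, 7.87 to 8.27 CPM without and 9.22 to 11.4 CPM with Cys starvation, and the germ layer sum was 24.8 to 28.6, 22.4 to 23.3 and 26.9 to 27.0 CPM in the same order. The part of these markers in the results was not tested. Nothing in the labels says that the 3 samples of a group were separate cultures, so the p-values measure only the spread between these samples, which may be technical.

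Thr starvation raised most of the replication genes. Of the 42 members, 28 were higher in the Thr-starved libraries at an adjusted p of 0.05 or less, 7 were lower and 7 were not called, against 31.1% of all genes tested called higher and 31.9% called lower. The median log2 fold change of the members was 0.35, and that of all genes tested was −0.02. Among the 9499 genes at or above the level of the lowest member, 43.8% were called higher and 38.9% lower. Their median log2 fold change was 0.02. The increases reached 2.26-fold for Orc6 and 2.01-fold for Gins3, and the deepest decrease, that of Gmnn, was to 0.708 of the unstarved level. In 36 members no Thr-starved library fell within the unstarved range or the reverse, 28 of them upwards and 8 downwards, while the groups did not overlap in 66.5% of all genes tested. This share, and those below for the other comparisons, include genes far below the members in level. It was not computed for genes at the level of the members.

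Cys starvation changed fewer members, and more of them downwards. Here 8 members were higher, 19 were lower and 15 were not called, against 17.5% of all genes tested called higher and 18.8% called lower. With the deposited size factors in place of TMM, 4 members were higher and 22 lower. The median log2 fold change of the members was −0.04 beside 0.01 for all genes tested. Among the 9499 genes at or above the level of the lowest member, 25.0% were called higher and 33.7% lower. Their median log2 fold change was −0.02. Orc5 had the largest increase, 1.49-fold, and Rfc3 fell furthest, to 0.665 of the unstarved level. The groups did not overlap in 30 members, 10 upwards and 20 downwards, beside 46.4% of all genes tested.

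**Figure D1:**
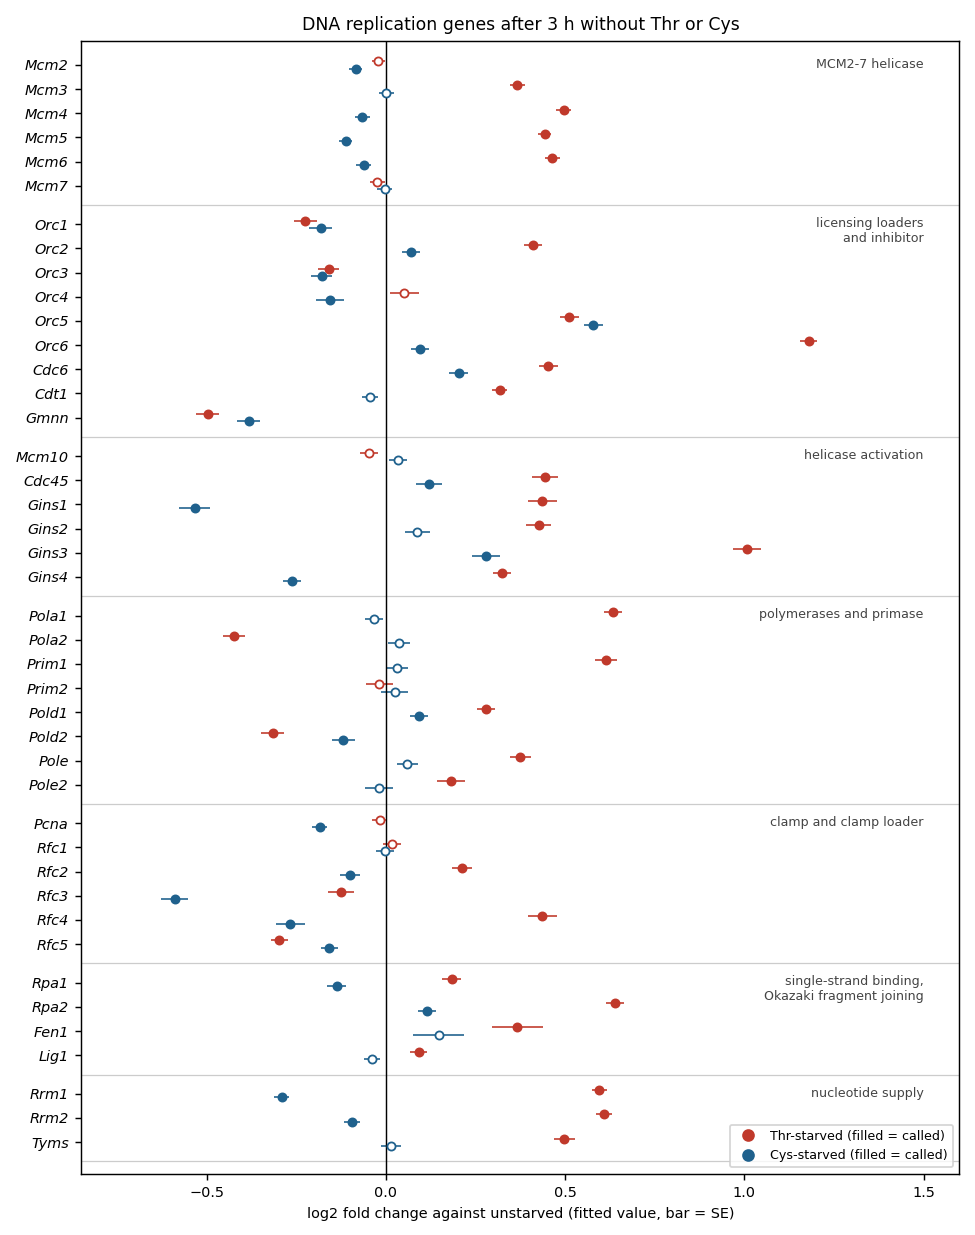
Fitted log2 fold change (horizontal axis) of each of the 42 members with Thr starvation (red) and Cys starvation (blue) against the same unstarved libraries, by role; bars are the standard error and filled points are called at an adjusted p of 0.05 or less. Most red points lie to the right of 0, up to 1.18 for Orc6, and most filled blue points lie to the left, down to −0.59 for Rfc3.

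The 2 starvations called partly different members, set against the same unstarved libraries. Called higher in both were 8 members, Orc2, Orc5, Orc6, Cdc6, Cdc45, Gins3, Pold1 and Rpa2. Another 10 were higher with Thr and lower with Cys starvation, namely Mcm4, Mcm5, Mcm6, Gins1, Gins4, Rfc2, Rfc4, Rpa1, Rrm1 and Rrm2, and 10 were called only with Thr starvation and were higher there, namely Mcm3, Cdt1, Gins2, Pola1, Prim1, Pole, Pole2, Fen1, Lig1 and Tyms. Orc1, Orc3, Gmnn, Pold2, Rfc3 and Rfc5 were lower in both. Pola2 was lower with Thr and not called with Cys starvation, Mcm2, Orc4 and Pcna were lower with Cys and not called with Thr starvation, and Mcm7, Mcm10, Prim2 and Rfc1 were called in neither. No member was lower with Thr and higher with Cys starvation. The share of all genes with each pattern was not counted. With the deposited size factors Orc2, Orc6, Cdc45 and Pold1 lost the call with Cys starvation. Cdt1 (−0.09), Pola1 (−0.07) and Lig1 (−0.08) were then called lower with Cys starvation. The latter genes were also called lower when the trends of each library with GC content and transcript length were removed.

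The MCM2-7 genes, whose products form a ring with 1 copy of each, did not move as a unit. With Thr starvation Mcm3, Mcm4, Mcm5 and Mcm6 rose by 0.37 to 0.50 on the log2 scale, and Mcm2 and Mcm7 stood at −0.02 each and were not called. Mcm4 (ENSMUSG00000022673, chr16:15623897-15637400, minus strand) was at 306, 315 and 308 CPM in the unstarved libraries, at 436, 439 and 434 CPM in the Thr-starved and at 295, 297 and 295 CPM in the Cys-starved libraries. The Thr-starved libraries stood above all others and the Cys-starved ones just below the unstarved ones, without overlap. The fitted log2 change of Mcm4 was 0.50 ± 0.021 (SE) with Thr starvation (adjusted p = 1.74e-15) and −0.07 ± 0.021 (adjusted p = 0.0143) in Cys-starved cells, and the latter lost its call without unstarved replicate 2 (−0.05). Mcm5, the most abundant of the 6, stood at 758 to 780 CPM without starvation, at 1032 to 1064 CPM with Thr and at 702 to 720 CPM with Cys starvation.

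With Cys starvation Mcm2, Mcm4, Mcm5 and Mcm6 were lower, by 0.06 to 0.11 on the log2 scale, and Mcm3 (0.00) and Mcm7 (−0.00) were not called. The call for Mcm6 was lost without unstarved replicate 3, without Cys-starved replicate 2 and without Cys-starved replicate 3. In each library the summed CPM of Mcm3, Mcm4, Mcm5 and Mcm6 was divided by that of Mcm2 and Mcm7, a ratio chosen after the values were seen. It was 1.69 to 1.71 without starvation, 2.30 to 2.35 with Thr and 1.67 to 1.70 with Cys starvation, so that the Thr-starved libraries stood apart from the other 6. For Mcm7, 72.8% of its longest transcript is near-identical to the pseudogene Gm5487, which was itself at 57.6 to 59.7 CPM as the mean of each group and was not called with either starvation, so the level of Mcm7 is uncertain where reads could be assigned to either.

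Among the ORC genes, which mark origins throughout the genome, the 6 subunits went in different directions. With Thr starvation Orc2, Orc5 and Orc6 rose, Orc1 and Orc3 fell, and Orc4 was not called (0.05 ± 0.040). Orc6 (ENSMUSG00000031697, chr8:85299632-85308278, plus strand) was at 91.3, 89.7 and 90.2 CPM without starvation, at 204, 204 and 206 CPM with Thr and at 97.8, 96.7 and 95.3 CPM with Cys starvation. The Thr-starved libraries of Orc6 stood far above all others, and the Cys-starved ones slightly above the unstarved range. The log2 change was 1.18 ± 0.025 (adjusted p = 1.1e-20) in Thr-starved cells, the largest of any member, and 0.10 ± 0.025 (adjusted p = 0.00409) in Cys-starved cells, and the latter call was lost with the deposited size factors (0.05). Of the exon bases of Orc6, 6.93% are shared with Vps35 on the opposite strand, a gene at 323 to 390 CPM as the mean of each group that changed by 0.15 and −0.12.

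Orc5 (chr5:22486485-22550429, minus strand) was the member most raised by Cys starvation. It was at 69.3, 67.9 and 67.6 CPM without starvation, at 98.9, 96.8 and 96.3 CPM with Thr and at 103, 102 and 101 CPM with Cys starvation. Both starved groups stood well above the unstarved group and close to each other, with log2 changes of 0.51 ± 0.027 (adjusted p = 1.44e-13) in Thr-starved cells and 0.58 ± 0.027 (adjusted p = 2.1e-13) in Cys-starved cells. When the trends of each library with GC content and transcript length were removed, the change with Thr starvation was 0.22, less than that with Cys starvation at 0.49. The direct difference of the starvations, −0.07 (adjusted p = 0.0343), lost its call in 11 of the alternatives, among them DESeq2 and 7 of the 9 fits that left out a library.

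Orc1 fell by 0.22 with Thr and by 0.18 with Cys starvation, and Orc3 fell by 0.16 and 0.18, on the log2 scale. The 2 starved groups of Orc1, at 69.3 to 73.1 and 71.5 to 76.7 CPM, overlapped each other and lay below the unstarved 81.7 to 86.2 CPM. Orc2 rose by 0.41 with Thr and by 0.07 with Cys starvation, and the small Cys change lost its call in 7 alternatives. Of the exon bases of Orc2, 29.8% are shared with Nif3l1 on the opposite strand, which fell by 0.98 with Thr starvation.

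Cdc6 and Cdt1, which bring the MCM ring to ORC, rose with Thr starvation, and the inhibitor geminin fell. Cdc6 was at 89.9, 94.5 and 90.6 CPM without starvation, at 125, 126 and 125 CPM with Thr and at 105, 107 and 104 CPM with Cys starvation. The 3 groups of Cdc6 did not overlap and lay in the order unstarved, Cys-starved and Thr-starved, with log2 changes of 0.45 ± 0.027 with Thr and 0.20 ± 0.027 with Cys starvation (adjusted p = 1.24e-12 and 3.45e-06). Cdt1 rose by 0.32 ± 0.022 with Thr starvation, a value that was 0.62 with the GC and length trends removed, and was not called with Cys starvation (−0.04, adjusted p = 0.128). Every Cys-starved library of Cdt1 nonetheless lay below every unstarved one. With the deposited size factors (−0.09) and with those trends removed (−0.07), Cdt1 was called lower with Cys starvation.

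Gmnn (ENSMUSG00000006715, chr13:24751845-24761923, minus strand) was at 68.3, 67.1 and 66.0 CPM without starvation, at 47.0, 47.8 and 47.8 CPM with Thr and at 50.1, 51.7 and 52.6 CPM with Cys starvation. Every starved library was below every unstarved library, and the Thr-starved group lay below the Cys-starved group. Gmnn fell by 0.50 with Thr starvation (SE 0.032, adjusted p = 4.39e-12) and by 0.38 with Cys starvation (SE 0.032, adjusted p = 2.59e-09), and it was the member with the deepest fall with Thr. The ratio of Cdt1 to Gmnn in CPM, chosen after the values were seen, was 3.66 to 3.91 in the unstarved, 4.59 to 4.96 in the Cys-starved and 6.57 to 6.68 in the Thr-starved libraries, with no overlap between the 3 groups.

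**Figure D2:**
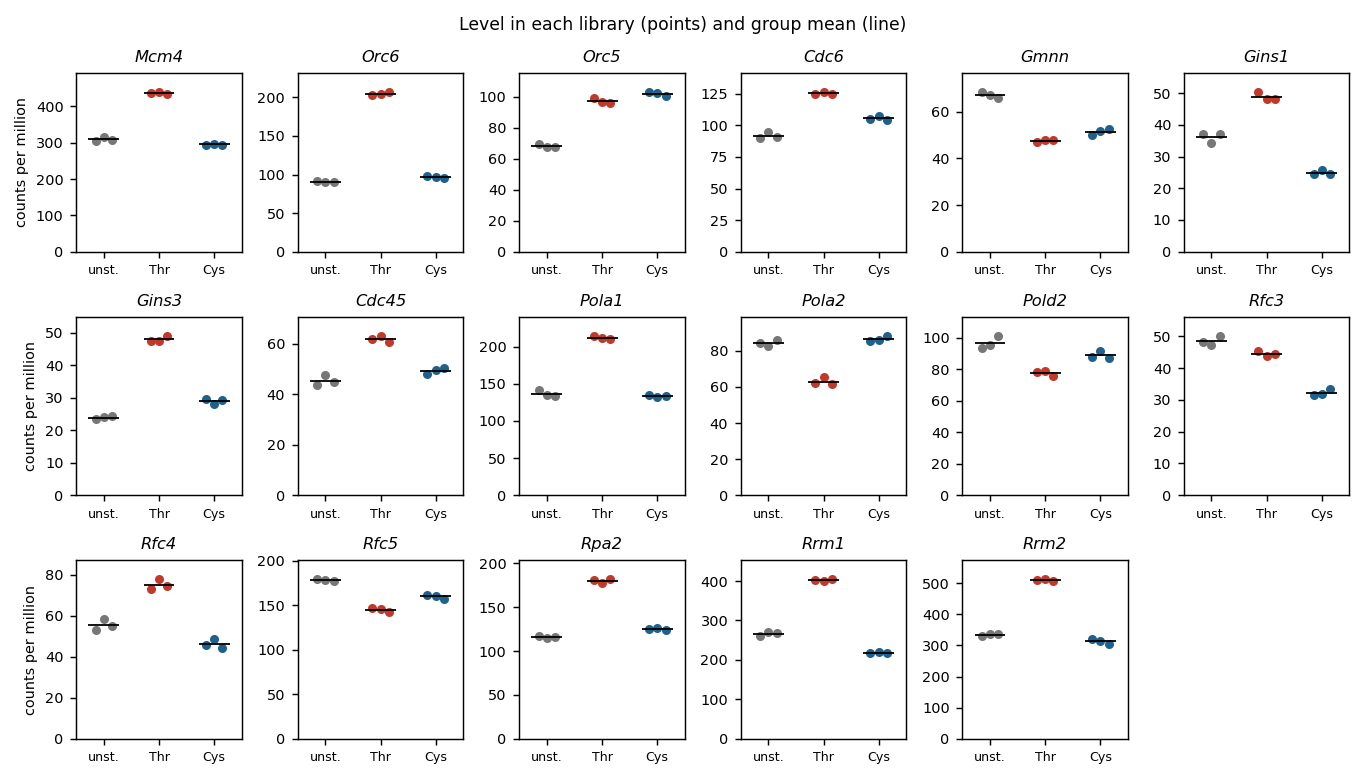
Level in CPM (vertical axis, from 0) of 17 members in each of the 9 libraries (points) with the mean of each group (line), in unstarved (grey), Thr-starved (red) and Cys-starved (blue) cells. Orc6 at 204 to 206 CPM with Thr starvation and Gins1 at 24.4 to 25.7 CPM with Cys starvation stand clear of the other groups, and the replicates of a group lie close together.

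The 4 GINS genes and Cdc45, whose products turn the loaded ring into a working helicase, all rose with Thr starvation, by 0.32 to 1.01 on the log2 scale, and Mcm10 was not called (−0.05, adjusted p = 0.115). Gins3 (ENSMUSG00000031669, chr8:95633453-95645060, plus strand) was at 23.3, 24.1 and 24.3 CPM without starvation, at 47.5, 47.5 and 49.0 CPM with Thr and at 29.5, 28.1 and 29.4 CPM with Cys starvation. The 3 groups of Gins3 did not overlap, with the Cys-starved libraries between the others, with log2 changes of 1.01 ± 0.039 (adjusted p = 5.18e-16) and 0.28 ± 0.040 (adjusted p = 8.09e-06).

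Gins1 (ENSMUSG00000027454, chr2:150905400-150931280, plus strand) went in opposite directions in the 2 starvations and was the only member called so with at least 0.3 on the log2 scale in both. It was at 37.0, 34.2 and 37.1 CPM without starvation, at 50.3, 48.2 and 48.1 CPM with Thr and at 24.4, 25.7 and 24.6 CPM with Cys starvation. The unstarved libraries thus lay between the starved groups. The log2 change was 0.44 ± 0.041 (adjusted p = 2.45e-09) in Thr-starved cells and −0.53 ± 0.042 (adjusted p = 1.36e-09) in Cys-starved cells, and the direct difference of 0.97 ± 0.042 (adjusted p = 4.07e-15) was second to that of Orc6.

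Gins4 also differed in direction, at 0.32 with Thr and −0.26 with Cys starvation, so that within this complex of 4 the genes Gins1 and Gins4 fell with Cys starvation, Gins3 rose and Gins2 was not called (0.09, adjusted p = 0.0574). The value of Gins2 crossed the threshold in 4 alternatives, and 67.3% of its exon bases are shared with Gse1 on the opposite strand, which fell by 0.28 with Thr starvation. Cdc45 was at 43.8, 47.6 and 45.1 CPM without starvation, at 61.9, 63.2 and 60.8 CPM with Thr and at 47.9, 49.8 and 50.6 CPM with Cys starvation. Its Thr-starved group stood apart, at 0.44 ± 0.037 (adjusted p = 3.07e-10), and the change with Cys starvation, 0.12 ± 0.037 (adjusted p = 0.0133), lost its call without unstarved replicate 1, without Cys-starved replicate 3 and with the deposited size factors.

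The 2 subunits of polymerase alpha went in opposite directions with Thr starvation. Pola1, the catalytic subunit of polymerase alpha, and Prim1, the catalytic subunit of primase, rose, and Pola2, the accessory subunit of polymerase alpha, fell, with Prim2 not called (−0.02 ± 0.038). Pola1 was at 141, 135 and 134 CPM without starvation, at 214, 212 and 210 CPM with Thr and at 134, 133 and 134 CPM with Cys starvation. Only the Thr-starved libraries of Pola1 stood apart, with a log2 change of 0.63 ± 0.025 (adjusted p = 7.94e-16), which was 0.40 with the GC and length trends removed.

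Pola2 was at 84.4, 82.8 and 86.2 CPM without starvation, at 62.0, 65.4 and 61.5 CPM with Thr and at 85.2, 86.1 and 88.3 CPM with Cys starvation. Here too only the Thr-starved libraries stood apart, but downwards, with a fall of 0.42 on the log2 scale (SE 0.031, adjusted p = 4.38e-11) beside 0.04 ± 0.030 with Cys starvation, which was not called (adjusted p = 0.406). The ratio of Pola1 to Pola2 in CPM, again chosen after the values were seen, was 1.55 to 1.67 without starvation, 1.52 to 1.58 with Cys and 3.23 to 3.46 with Thr starvation. The 2 genes lie on chromosomes X and 19.

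Of the polymerase delta genes among the members, Pold1 rose and Pold2 fell with Thr starvation. Pold1, the catalytic subunit, rose by 0.28 ± 0.026 with Thr starvation, which was 0.79 with the GC and length trends removed, and Pold2 fell by 0.32 (SE 0.033, adjusted p = 1.25e-08), which was −0.08 with those trends removed. Pold2 was at 93.5, 95.5 and 101 CPM without starvation, at 78.2, 79.1 and 75.8 CPM with Thr and at 88.0, 91.7 and 87.2 CPM with Cys starvation. All 3 groups of Pold2 were apart, with the Cys-starved group between, and its fall of 0.12 with Cys starvation (adjusted p = 0.00504) lost its call without unstarved replicate 3. Of polymerase epsilon, Pole rose by 0.37 and Pole2 by 0.18 with Thr starvation, the latter at 0.06 and not called with the GC and length trends removed. Outside the members, the accessory subunits Pold3 (0.51), Pold4 (0.48), Pole3 (0.80) and Pole4 (0.49) were also called higher with Thr starvation, genes named here after their values were seen, so that Pola2 and Pold2 were the only subunits of the 3 polymerases called lower. Pold4 was low, at a mean of 0.964 CPM without starvation, and its call was near the threshold (SE 0.196, adjusted p = 0.0378). With Cys starvation Pold1 was called higher (0.09) and Pold2 lower, and the other 6 genes of polymerases and primase were not called. The call for Pold1 was lost with the deposited size factors (0.05, adjusted p = 0.152), where Pola1 was called lower (−0.07).

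In the clamp and its loader the changes with Cys starvation were all downwards. Pcna and Rfc2 to Rfc5 were lower, by 0.10 to 0.59 on the log2 scale, and Rfc1, the large subunit, was not called (−0.00, adjusted p = 0.967). Rfc3 (ENSMUSG00000033970, chr5:151642756-151651242, minus strand) was at 48.3, 47.2 and 50.1 CPM without starvation, at 45.2, 43.8 and 44.4 CPM with Thr and at 31.6, 31.8 and 33.3 CPM with Cys starvation. The Cys-starved libraries of Rfc3 were the lowest by a wide gap, and the Thr-starved libraries lay just below the unstarved ones. Rfc3 fell by 0.59 with Cys starvation (SE 0.037, adjusted p = 3.47e-11), the deepest fall of a member in either starvation, and by 0.13 with Thr starvation (SE 0.037, adjusted p = 0.00487), which was −0.28 with the GC and length trends removed.

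Rfc4 and Rfc5, further small subunits of the clamp loader, differed from each other. Rfc4 was at 53.1, 58.5 and 55.1 CPM without starvation, at 73.1, 77.7 and 74.7 CPM with Thr and at 45.6, 48.6 and 44.3 CPM with Cys starvation, and Rfc5 was at 179, 178 and 177 CPM without starvation, at 147, 146 and 142 CPM with Thr and at 162, 161 and 157 CPM with Cys starvation. Rfc4 thus rose with Thr (0.44 ± 0.040, adjusted p = 1.58e-09) and fell with Cys starvation (−0.27 ± 0.040, adjusted p = 1.56e-05). Rfc5 fell in both, by 0.30 with Thr (SE 0.024, adjusted p = 2.55e-10) and by 0.16 with Cys starvation (SE 0.024, adjusted p = 1.63e-05). Some exon bases of each are shared with a gene on the opposite strand, 12.7% of Rfc4 with Eif4a2, which rose by 0.55 with Thr starvation, and 10.7% of Rfc5 with Wsb2, which fell by 0.75, and their part in these values was not tested.

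Pcna, the sliding clamp, was not called with Thr starvation. It was at 412 to 424 CPM without starvation, at 411 to 421 CPM with Thr and at 363 to 375 CPM with Cys starvation, a log2 change of −0.02 ± 0.021 with Thr (adjusted p = 0.502) and of −0.18 ± 0.021 (adjusted p = 3.93e-07) in Cys-starved cells. With the GC and length trends removed Pcna was called lower with Thr starvation as well (−0.12). The pseudogene Pcna-ps2 matches 51.5% of the Pcna transcript at high identity and had 146 to 164 CPM as the mean of each group, so the division of reads between them is uncertain, and it fell by 0.15 with Cys starvation.

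Rpa1 and Rpa2, of the single-strand binding protein, rose with Thr starvation, as did Fen1 and Lig1. Rpa2 was at 117, 115 and 116 CPM without starvation, at 182, 178 and 182 CPM with Thr and at 125, 127 and 125 CPM with Cys starvation. The 3 groups of Rpa2 did not overlap, with log2 changes of 0.64 ± 0.024 (adjusted p = 3.69e-16) in Thr-starved cells and 0.11 ± 0.024 (adjusted p = 0.00069) in Cys-starved cells. Rpa1, the large subunit, rose by 0.18 with Thr and fell by 0.14 with Cys starvation. Fen1, at 8.81 to 13.3 CPM the lowest member, rose by 0.37 ± 0.071 with Thr starvation, and 78.8% of its exon bases are shared with the antisense gene Gm10143, so that its count is uncertain if strand was not used in counting. Lig1 rose by 0.09 ± 0.023 (adjusted p = 0.00132), the smallest increase called with Thr starvation, and stood at 0.24 with the GC and length trends removed. Of its exon bases, 5.79% are shared with Zswim9 on the opposite strand, which rose by 1.20 with Thr starvation.

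The nucleotide supply genes gave the highest median of the role groups with Thr starvation, 0.60 on the log2 scale, and −0.09 with Cys starvation. With the GC and length trends removed, the changes with Thr starvation were smaller, at 0.42 for Rrm1, 0.52 for Rrm2 and 0.44 for Tyms. The role groups were not ranked in that setting. Rrm1, the large subunit of ribonucleotide reductase (ENSMUSG00000030978, chr7:102441695-102469771, plus strand), was at 261, 270 and 267 CPM without starvation, at 402, 400 and 404 CPM with Thr and at 217, 219 and 217 CPM with Cys starvation. Rrm2, the small subunit (chr12:24708241-24714146, plus strand), was at 330, 337 and 336 CPM without starvation, at 511, 512 and 506 CPM with Thr and at 321, 313 and 305 CPM with Cys starvation. In both genes the Thr-starved libraries lay far above and the Cys-starved libraries below the unstarved ones, without overlap.

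Rrm1 rose by 0.60 ± 0.021 with Thr (adjusted p = 1.36e-16) and fell by 0.29 with Cys starvation (SE 0.022, adjusted p = 4.31e-10), and Rrm2 rose by 0.61 ± 0.022 (adjusted p = 1.44e-16) and fell by 0.09 (SE 0.022, adjusted p = 0.00156). The ratio of Rrm1 to Rrm2, chosen after the values were seen, was 0.790 to 0.802 without starvation, 0.782 to 0.798 with Thr and 0.674 to 0.712 with Cys starvation. The ratio of the subunits was thus lower in the Cys-starved libraries only, with the Thr-starved and unstarved ranges overlapping. Tyms, thymidylate synthase, rose by 0.50 ± 0.028 with Thr starvation and was not called with Cys starvation (0.01, adjusted p = 0.745).

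The starvations were also set against each other directly, in the same fit of all 9 libraries. The unstarved libraries therefore entered the scaling and the estimate of spread. Of the 42 members, 31 were higher in the Thr-starved than in the Cys-starved libraries, 6 were lower and 5 were not called, beside 30.4% of all genes tested called higher and 31.6% called lower. The groups did not overlap in 37 members, beside 65.8% of all genes tested. Among the 9499 genes at or above the level of the lowest member, 47.0% were called higher and 35.6% lower. Their median log2 difference was 0.06. The median log2 difference of the members was 0.32, beside −0.02 over all genes tested, and 13 members differed by at least 0.5, all of them higher with Thr starvation.

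The largest differences were those of Orc6 (1.08 ± 0.025), Gins1 (0.97 ± 0.042), Rrm1 (0.89 ± 0.022) and Gins3 (0.73 ± 0.038), each with an adjusted p of at most 1.33e-13. The 6 that were lower with Thr starvation were Pola2 (−0.46), Pold2 (−0.20), Rfc5 (−0.14), Gmnn (−0.11), Mcm10 (−0.08) and Orc5 (−0.07). Of these, Pold2 stood at 0.04 with the GC and length trends removed and Rfc5 at −0.01, both then not called, Mcm10 lost its call there as well (−0.03), with the deposited size factors (−0.03) and without Cys-starved replicate 1, and Gmnn lost its call with the deposited size factors (−0.07).

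**Figure D3:**
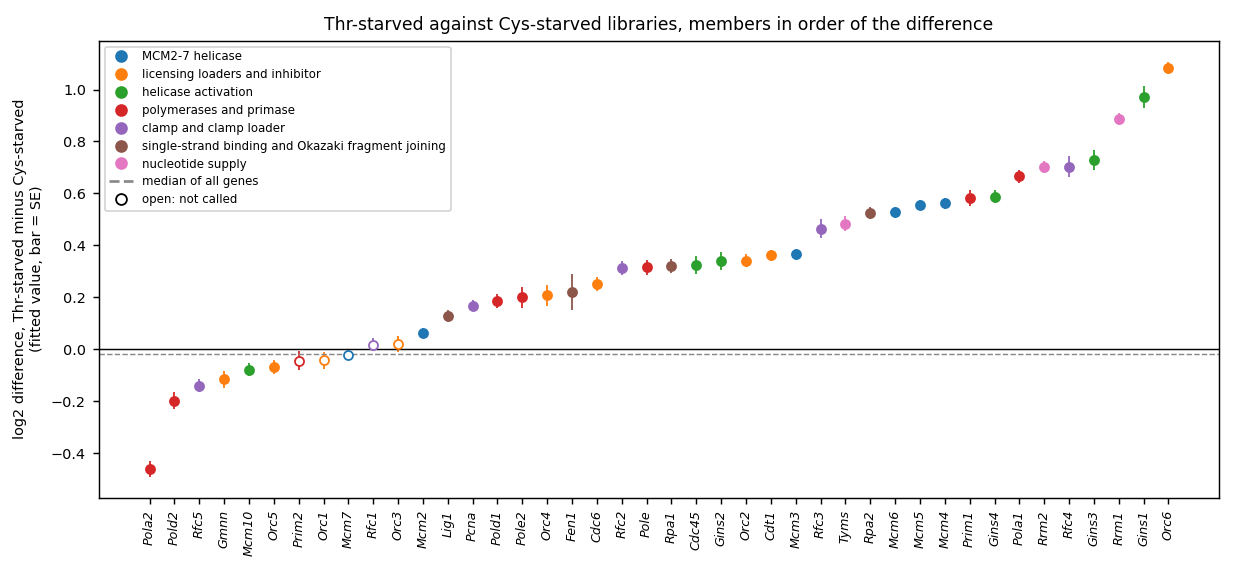
Log2 difference of the Thr-starved minus the Cys-starved libraries (vertical axis) for the 42 members in order of its size, coloured by role, with the standard error; open points were not called and the dashed line is the median of all genes, −0.02. The points run from −0.46 for Pola2 to 1.08 for Orc6, and all 3 nucleotide supply genes lie in the upper part.

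The 42 members summed to 7555 to 7728 CPM in the unstarved, 7266 to 7361 CPM in the Cys-starved and 9247 to 9334 CPM in the Thr-starved libraries, with no overlap between the groups. To compare levels between genes, CPM were divided by the length in kb of all annotated exons of the gene together. This length can exceed that of a single transcript. For Mcm2 it was 6956 bases beside 3494 in the longest transcript, and for Mcm5 3993 beside 3381. The order between genes and the spread within the MCM ring therefore depend on the annotation. On this scale of level, the members without starvation ranged from 3.90 CPM per kb for Fen1 to 193 CPM per kb for Mcm5. The count of Fen1 is uncertain if strand was not used in counting, as given above. Mcm5 was followed by Pcna at 175, Mcm3 at 136, Rrm2 at 121 and Mcm2 at 107. Within the MCM ring the levels ran from 84.0 CPM per kb for Mcm6 to that of Mcm5. With Thr starvation the order at the top was Mcm5 at 262, Rrm2 at 184, Mcm3 at 175, Pcna at 173 and Mcm4 at 122 CPM per kb. The polymerase subunits were lower, between 6.62 for Prim2 and 51.0 CPM per kb for Pold2 without starvation.

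The promoter windows of 34 members were matched by symbol to RefSeq starts, each window running from 250 bases before to 50 after the start. The E2F motif spelled out above was in the windows of 14 of these 34 members (41.2%) and of 704 of all 27025 genes with a window (2.61%). A CCAAT box (CCAAT, either strand) was in 22 of the 34 members (64.7%) and in 41.1% of all genes, and the CHR motif of cell cycle genes (TTTGAA or TTCGAA, either strand) was in 7 of the 34 (20.6%) and in 21.7% of all genes. The 14 members with the E2F motif were Mcm3, Mcm5, Mcm6, Mcm7, Orc1, Orc3, Cdc6, Cdt1, Gins3, Pola1, Pold1, Pole2, Rfc3 and Lig1, and their matches lay from 165 bases before to 39 bases after the start.

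The changes are given for members with and without the motif, with no test between them. With Thr starvation 10 of the 14 with an E2F match were higher and 3 lower, with a median log2 change of 0.30, and of the 20 without a match 12 were higher and 3 lower, with a median of 0.39. With Cys starvation 3 of the 14 were higher and 5 lower, and 5 of the 20 were higher and 9 lower. A match is only a description of these letters in this window, and 8 members, Gmnn and Gins1 among them, were not examined in this way.

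Other genes of replication outside the 42 were counted in the same way. Of 36 further replisome and licensing genes, 22 were higher and 11 lower with Thr starvation with a median log2 change of 0.30, and 13 were higher and 8 lower with Cys starvation with a median of 0.04. Atad5, which unloads the Pcna clamp (1.11), and Donson, which helps assemble the helicase (1.01), were highest with Thr starvation, and Rnaseh2c (−1.20) and Chtf18 (−0.53) were lowest. With Cys starvation Pold4 (0.77) and Rrm2b, the p53-inducible small subunit of ribonucleotide reductase (0.51), were highest, and Pole4 (−0.19) and Samhd1, a dNTP hydrolase (−0.18), were lowest. The level of Pold4 was low, at a mean of 0.964 CPM without and 1.64 CPM with Cys starvation, with an SE of 0.19. Directly against Cys starvation, Atad5 (1.06) and Donson (0.91) were again highest and Rnaseh2c (−1.19) and Chtf18 (−0.92) lowest, and the list held 20 higher and 9 lower genes.

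Of 13 genes for E2F, DP and pocket proteins, 7 were higher and 3 lower with Thr starvation, and 3 were higher and 6 lower with Cys starvation. E2f1 rose from 33.5, 35.3 and 33.7 CPM to 48.0, 50.1 and 48.8 CPM with Thr starvation (0.52 ± 0.038, adjusted p = 3.91e-11) and was at 37.5, 37.8 and 35.8 CPM with Cys starvation (0.12, adjusted p = 0.0201). The pocket protein genes Rbl2 (0.94) and Rb1 (0.76) had the largest increases with Thr starvation, and E2f2 (−2.03) and E2f4 (−0.16) the largest decreases. With Cys starvation the extremes were E2f8 (0.17) and Tfdp2 (0.14) upwards and E2f2 (−0.46) and E2f5 (−0.39) downwards. All 13 were called between the starvations, 11 higher with Thr, led by Rbl2 (0.85) and E2f5 (0.72), and 2 lower, E2f2 (−1.57) and E2f4 (−0.07).

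Of 12 replication checkpoint genes, 8 were higher and 3 lower with Thr and 2 higher and 4 lower with Cys starvation. Cdkn1a, the CDK inhibitor p21, was at 35.0, 37.5 and 35.1 CPM without starvation, at 114, 115 and 113 CPM with Thr and at 30.3, 31.3 and 29.5 CPM with Cys starvation. It thus rose by 1.66 ± 0.034 with Thr (adjusted p = 7.27e-21) beside the rise of the replication genes and fell by 0.24 with Cys starvation (adjusted p = 1.62e-05). Chek1 (0.86) was next with Thr starvation, where Etaa1 (−0.43) and Atrip (−0.23) were lowest. With Cys starvation Rad9a (0.59) and Cdkn1b (0.20) were highest and Etaa1 (−0.45) lowest, and between the starvations Cdkn1a (1.90) and Chek1 (0.84) were the largest differences upwards and Rad9a (−0.19) and Rad1 (−0.13) downwards.

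Of 25 mitosis genes, 18 were higher and 5 lower with Thr starvation with a median log2 change of 0.26, beside the members' 0.35, and 7 were higher and 8 lower with Cys starvation with a median of −0.00. Prc1 (0.96) and Cenpe (0.78) were highest with Thr starvation and Bub1b (−0.67) and Ube2c (−0.46) lowest, and with Cys starvation Cenpe (0.31) and Prc1 (0.22) were highest and Kif11 (−0.29) and Plk1 (−0.24) lowest. Between the starvations Kif11 (0.78) and Prc1 (0.73) were higher with Thr and Bub1b (−0.48) and Aurkb (−0.35) lower. No test compared these lists with the members.

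**Figure D4:**
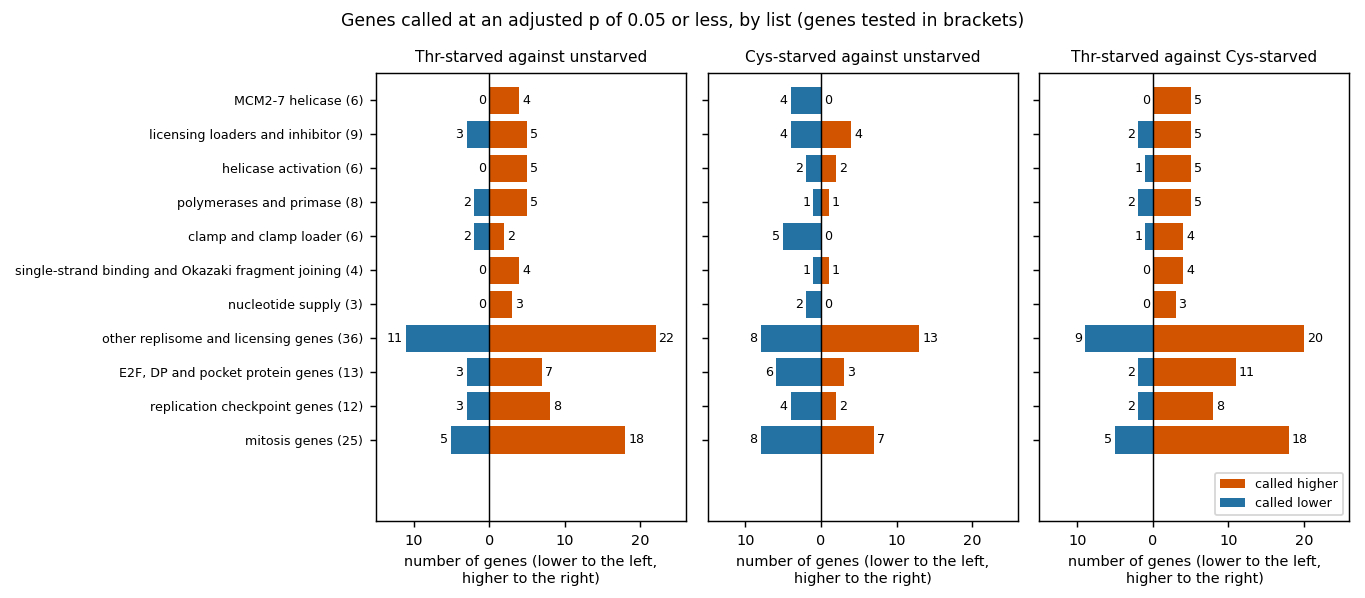
Number of genes called higher (right, orange) and lower (left, blue) in each of the 7 role groups of members and in 4 further lists, in the 3 comparisons, at an adjusted p of 0.05 or less; the number of genes tested stands in brackets. With Thr starvation the bars of the members are longer on the right in every group but clamp and clamp loader, where 2 were higher and 2 lower, and with Cys starvation none of the MCM2-7, clamp and nucleotide supply genes was higher.

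GC content and transcript length moved with part of these changes. With the trends of each library on both removed, 29 members were higher and 10 lower with Thr starvation and the median log2 change was 0.32. Orc6 (1.08), Gins3 (0.97), Rpa2 (0.67), Gmnn (−0.50) and Pola2 (−0.48) differed little from their main values. Mcm2 (0.08) and Mcm7 (0.10) were then called higher, Orc4 (−0.28), Prim2 (−0.18) and Pcna (−0.12) were called lower, and Pole2 (0.06) was no longer called. Among all 9499 genes at or above the level of the lowest member, 10.7 CPM as the mean of the 9 libraries, 43.8% were called higher and 38.9% lower with Thr starvation and the median log2 change was 0.02, while with Cys starvation these were 25.0%, 33.7% and −0.02. Between the starvations, 47.0% of these genes were called higher with Thr and 35.6% lower, with a median log2 difference of 0.06.

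**Figure D5:**
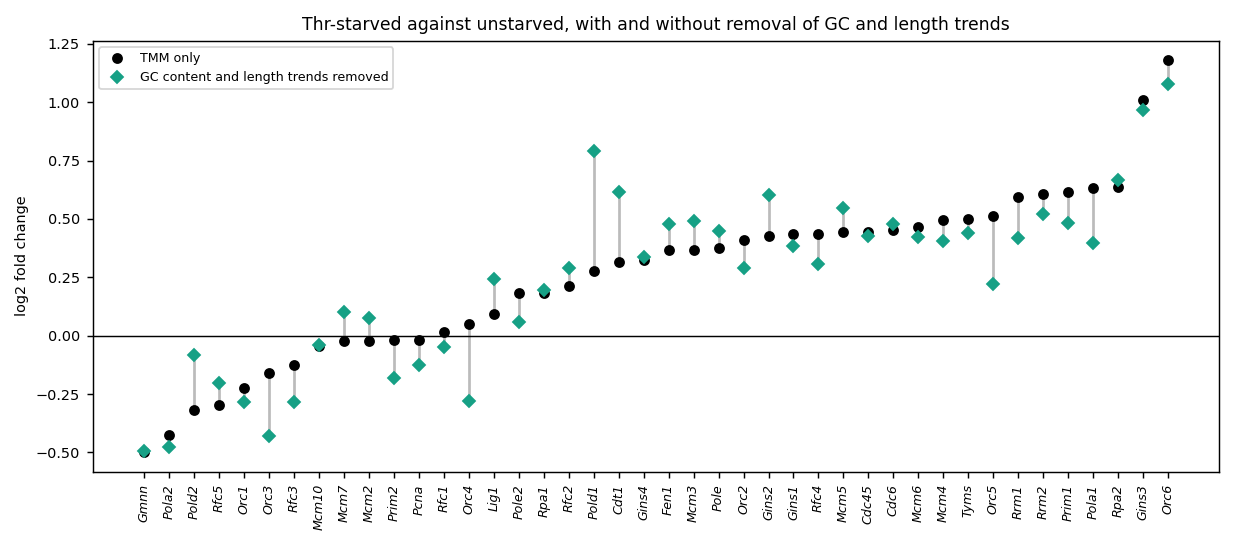
Log2 fold change with Thr starvation (vertical axis) of each member in order of its size, with TMM scaling only (black) and with the GC content and length trends of each library removed (green). Orc6 and Gins3 stay near 1 and Gmnn near −0.50 in both, while Pold1 moves from 0.28 to 0.79 and Orc4 from 0.05 to −0.28.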

How the data were processed

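Poly(A) RNA of 9 libraries was measured in a single sequencing run. Per the labels and the study's methods, the authors mapped paired-end reads to GRCm38 with STAR 2.7.4a and counted them per Ensembl gene with HTSeq, whose strand and overlap settings are not given in the sources used here. The deposited counts are raw counts per gene, of which 67.8% of those between 1 and 20 were even numbers. The deposited normalized table is a signal, the counts divided by 1 DESeq2 size factor per library, and was used here only for those factors. No per-sample column was left unused.

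Counts of the 20143 genes with at least 1 count in all were fitted with edgeR 4.0.16 in R 4.3.3 (TMM scaling, quasi-likelihood test, all 9 libraries in 1 fit, no covariate), with Benjamini-Hochberg adjustment over all of them and calls at an adjusted p of 0.05. Coordinates are those of GENCODE M21 on GRCm38, shared sequence was searched with BLAST 2.17.0 at 95% identity, and promoter sequences are from RefSeq. Alternatives were DESeq2 1.42.0, other size factors and filters, a fit of 2 groups, the replicate number as a block, halved counts, offsets removing GC and length trends (loess, span 0.3), stricter thresholds and leaving out each library. The edgeR fit, its versions with the block, halved counts and GC and length offsets, and DESeq2 were tested on simulated data for Thr-starved against unstarved only.

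The members and lists were chosen with earlier results of these data known. Values in every library are given for the 4 members called highest and the 4 called lowest by log2 change in each comparison, for members called in opposite directions with at least 0.3 on the log2 scale in both starvations, and for the member of each role group with the largest change with Thr starvation. Of the other lists, the 2 called genes with the largest change in each direction in each comparison, Cdkn1a and E2f1 are named. The labels' account of the medium names only Arg and Leu as left out.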

Additional observations from a re-analysis of the deposited data

How the results depend on the processing

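The Thr-starved against unstarved counts stayed at 28 higher and 7 lower with every library left out in turn and under every alternative except removal of GC and length trends (29 and 10) and a minimum absolute log2 change of 0.5 (8 and 0). The median was 0.33 to 0.36 with a library left out and 0.32 with the trends removed. Against unstarved, Cys-starved counts were 7 to 8 higher and 17 to 20 lower with a library left out, 4 and 22 with the deposited size factors, and 1 and 2 at the minimum change of 0.5. The Cys-starved median was −0.041 to −0.032 with a library left out, −0.040 with DESeq2 and also with its size factors alone, −0.0777 with the deposited ones, −0.028 with at least 10 counts in every library, −0.031 with only the 2 groups and −0.069 with the trends removed. Thr-starved against Cys-starved counts were 30 to 31 higher and 4 to 6 lower with a library left out (4 lower without Cys-starved replicate 1), 13 and 0 at the minimum change of 0.5, and 3 lower with the deposited size factors, and the median was 0.31 to 0.33 with a library left out, 0.36 with the deposited size factors and 0.37 with the trends removed. Pola2 with Cys starvation (0.035, not called) was −0.0064 with the deposited size factors, and with the trends removed Pold2 between the starvations went from −0.20 to 0.042 and Orc4 from 0.21 to −0.022. The cause was not tested. The samples share only a replicate number (correlations of deviations −0.24 to 0.11), and with the number as a block the calls were 28 and 7 with Thr, 7 and 19 with Cys starvation, where Orc2 was lost, and 31 and 6 between the starvations. With a lowest member count of 512 in a library, every member was well covered, and small Cys-starved changes turned on single libraries for Mcm4, Mcm6, Cdc45, Pold2 and Orc2.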
